A study of Mus musculus with 4 samples.

Results

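Among ATAC-seq peaks of sorted mouse fetal germ cells, 2390 regions inside gene bodies carried a peak in each Control library but in none of the Snf5 CKO libraries. Peaks of the 4 libraries that overlapped by at least 1 bp were merged, which gave 62815 regions on chromosomes 1 to 19. The status of a region was lost if its peaks came from both Controls and no knockout library, kept if all 4 libraries contributed, and gained if both knockouts but no Control did. A gene-body region overlapped a RefSeq protein-coding gene of mm10 and lay outside the 1000 bp on either side of every annotated start or end of such genes. By this rule 22645 merged regions were gene-body regions, of which 2390 (10.6%) were lost, 3634 (16.0%) kept and 1111 (4.91%) gained. The remaining gene-body regions had other combinations of peaks.

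ATAC-seq uses a transposase that inserts adapters where DNA is open, so a peak marks accessible chromatin. The cells were female germ cells from C57BL/6 embryos at E15.5, sorted on an Oct4-EGFP reporter. The Control genotype gave 2 libraries, and Snf5 CKO, a conditional knockout of Snf5, gave 2. Snf5 is the protein encoded by Smarcb1. All 4 libraries shared the strain, sex, stage, tissue and reporter sort. The labels name neither the Cre driver nor the alleles of the Controls, and they do not say whether the libraries of a group came from separate embryos. The spread between libraries of a group could therefore be only technical. By its title, the study concerned SWI/SNF in the activation of meiotic genes.

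SWI/SNF complexes use ATP to slide or evict nucleosomes, and SMARCB1 is one of their core subunits. Open chromatin inside genes, away from the annotated ends, includes enhancers, insulators and alternative promoters from which shorter transcripts start. Female germ cells at this stage are leaving the pluripotency-like programme of primordial germ cells and are in meiotic prophase.

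Some lost gene-body regions were annotated transcription starts that lie inside a longer gene. Of the 2390 regions, 118 (4.94%) touched a start window in the RefSeq promoter table of GRCm38.p6, and 85 (3.56%) touched one of a protein-coding gene, 84 genes in all. The same protein-coding share was 26.2% among the 3634 kept gene-body regions (951 regions) and 1.35% among the 1111 gained ones (15 regions). The promoter table gave a usable strand for 16456 of 20661 protein-coding genes (79.6%). Starts of the others may be missed, so the shares of every class may be too low. For 28 of the 84 genes, every start that the promoter table lists lay at a lost region. The outer gene ends of 10 of these 28 were open in all 4 libraries, those of 13 were closed in all 4, those of 2 were lost and those of 3 had another combination of peaks.

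The bases upstream of 6 such starts are printed to show what kind of DNA was lost as a peak. Mycbpap, Ttll6, Rec114, Fuom and Il1r1 are the 5 protein-coding genes whose start windows, wholly inside a lost region, had the highest fold in the weaker Control. This choice was made after the values were seen. Fry is added because it hosted the most lost regions. Each sequence is the 250 bases before the start, 5′ to 3′ on the gene's strand, from the RefSeq promoter table of GRCm38.p6. Capitals mark matches on either strand to 10 short motifs, here GGGCGG (bound by SP and KLF factors), CAGCTG (an E-box) and CCGGAAG (bound by ETS factors).
Mycbpap: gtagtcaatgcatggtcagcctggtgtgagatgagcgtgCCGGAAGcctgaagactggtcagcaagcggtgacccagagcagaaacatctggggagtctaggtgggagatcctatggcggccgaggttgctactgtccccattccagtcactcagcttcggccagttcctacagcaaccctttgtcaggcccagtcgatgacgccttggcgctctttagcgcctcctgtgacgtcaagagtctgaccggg
Ttll6: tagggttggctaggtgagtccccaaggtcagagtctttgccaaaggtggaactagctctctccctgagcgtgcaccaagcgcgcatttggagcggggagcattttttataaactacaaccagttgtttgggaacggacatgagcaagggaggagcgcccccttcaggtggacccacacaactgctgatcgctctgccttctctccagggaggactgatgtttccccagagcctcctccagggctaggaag
Rec114: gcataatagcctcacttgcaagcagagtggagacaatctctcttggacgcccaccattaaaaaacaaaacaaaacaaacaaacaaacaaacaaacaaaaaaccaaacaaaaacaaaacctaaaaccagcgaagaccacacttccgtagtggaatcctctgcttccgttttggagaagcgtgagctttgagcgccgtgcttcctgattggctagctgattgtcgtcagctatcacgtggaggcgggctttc
Fuom: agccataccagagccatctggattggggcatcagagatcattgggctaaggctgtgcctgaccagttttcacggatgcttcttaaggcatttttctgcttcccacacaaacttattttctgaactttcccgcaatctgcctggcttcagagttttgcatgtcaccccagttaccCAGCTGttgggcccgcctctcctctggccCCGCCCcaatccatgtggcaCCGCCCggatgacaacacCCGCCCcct
Il1r1: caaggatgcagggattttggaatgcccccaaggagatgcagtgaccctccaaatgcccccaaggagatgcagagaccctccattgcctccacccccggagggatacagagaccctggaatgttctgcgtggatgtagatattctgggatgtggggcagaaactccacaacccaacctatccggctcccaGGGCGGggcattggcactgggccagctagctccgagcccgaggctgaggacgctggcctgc
Fry: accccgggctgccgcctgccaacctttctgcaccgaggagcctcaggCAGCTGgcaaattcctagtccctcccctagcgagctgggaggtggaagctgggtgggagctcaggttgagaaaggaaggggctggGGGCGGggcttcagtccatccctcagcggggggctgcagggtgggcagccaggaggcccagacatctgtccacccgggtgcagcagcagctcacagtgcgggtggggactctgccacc
The Mycbpap window is chr11:94521503-94521752 on the minus strand, Ttll6 is chr11:96133536-96133785 on the plus strand, and Rec114 is chr9:58741560-58741809 on the minus strand. Fuom is chr7:140102407-140102656 on the minus strand, Il1r1 is chr1:40266336-40266585 on the plus strand, and Fry is chr5:150259680-150259929 on the plus strand. The Fuom window held 4 motif matches, and those of Ttll6 and Rec114 held none.

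Rec114, which acts in making the programmed DNA breaks of meiotic recombination, shows how such a region sits in its gene. Its gene spans chr9:58652856-58822706, and its start in the promoter table lies in the lost region chr9:58741041-58742053. That region had a fold enrichment of 5.40 in Control 1 and 4.46 in Control 2, and no peak in Snf5 CKO 1 or Snf5 CKO 2. A second Rec114 gene-body region was kept, with folds of 3.74 and 3.42 in the Controls and 3.63 and 4.23 in Snf5 CKO 1 and Snf5 CKO 2. The region at the outer start of Rec114 was kept as well, with folds of 3.59 and 3.55 in the Controls and 5.03 and 4.18 in the knockouts. In Rec114 the start inside the gene had no peak in either knockout library, while the outer end did.

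The other printed starts differed in the state of their outer gene ends. Ttll6, a tubulin polyglutamylase, had folds of 4.61 in Control 1 and 4.62 in Control 2 at its internal start, and its outer gene ends were lost as well. Mycbpap, with folds of 5.29 and 5.04, and Fuom, a fucose mutarotase gene with folds of 5.24 and 4.33, had outer ends closed in all 4 libraries. The same was true of Il1r1, the interleukin 1 receptor gene, with folds of 4.2 and 4.08. In these 3 genes no library had a peak at the outer ends.

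Across the 137 start windows at lost gene-body regions the GC content had a median of 57.6%, between that of 1354 windows at kept gene-body regions (62.8%) and that of all 32851 windows in the table (52.4%). GGGCGG was present in 51.1% of the windows at lost regions, 62.7% of those at kept regions and 32.7% of all windows. CAGCTG was present in 19%, 10.7% and 13.0%, and CCGGAAG in 9.49%, 9.16% and 6.91%. The AP-1 motif TGANTCA was present in 6.57%, 3.77% and 6.75%, the GATA motif AGATAA in 2.92%, 3.84% and 9.99%, and CNCCTCAG in 8.03%, 8.42% and 6.42%. The SOX motif ACAATNG was present in 3.65%, 3.91% and 6.91%, and the forkhead motif TGTTTAC in 0.730%, 1.85% and 3.17%. The octamer ATTTGCAT and the NR5A motif TCAAGGTCA matched none of the 137 windows, against 1.6% and 0.387% of all windows. Windows of 1 gene can overlap and share matches. Sequence was read only at annotated starts, so these shares describe few of the 2390 regions.

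Lost gene-body regions were narrower than kept ones and weaker peaks in the Controls. Their merged width ran from 203 to 1883 bp with a median of 597 bp, against medians of 925 bp for kept and 468 bp for gained gene-body regions. Kept regions join peaks of 4 libraries and lost ones of 2, which widens kept regions by construction. Within single libraries, peaks covered medians of 495 and 386 bp of lost regions in Controls 1 and 2, and 785 and 748 bp of kept ones. Lost regions at gene ends and between genes had median widths of 671 and 537 bp. The fold enrichment of the authors' lists, the signal of a peak over its local background, was 3.46 in Control 1 (median, range 1.56 to 7.31) and 3.42 in Control 2 (range 1.58 to 6.84). Kept gene-body regions had Control medians of 4.24 and 4.21. Nearly every lost region was a simple pair of peaks, with 1 from each Control in 2351 of 2390 (98.4%).

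**Figure D1:**
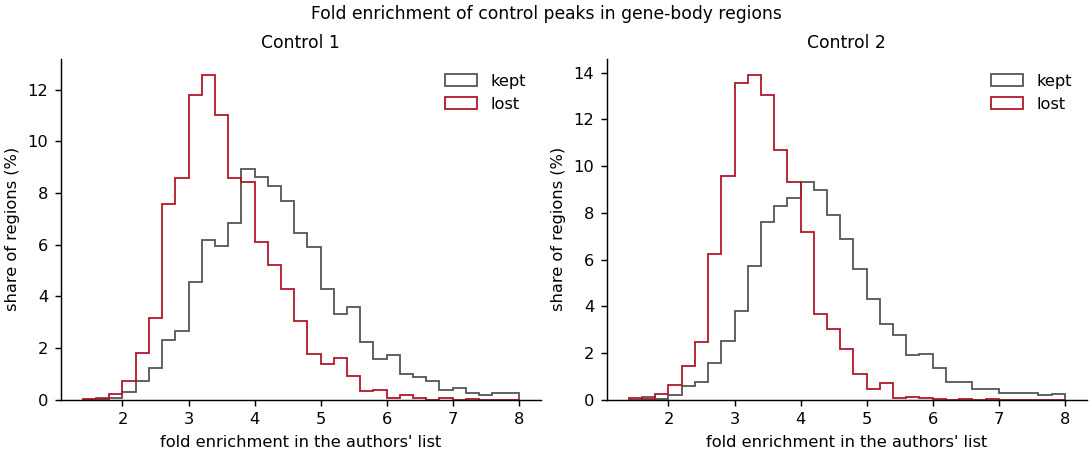
Distribution of the authors' fold enrichment (horizontal axis, ratio over local background, drawn up to 8) in Control 1 and Control 2 for lost (red) and kept (grey) gene-body regions, as the share of each class in percent. Lost regions centre on 3.46 and 3.42, kept ones on 4.24 and 4.21, and 80 kept regions in Control 1 and 75 in Control 2 lie beyond the axis.

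The strength of evidence for these peaks was also low. In the weaker of the 2 Controls the −log10 q had a median of 2.43, and 751 of 2390 lost regions (31.4%) reached 3, against 2996 of 3634 kept regions (82.4%). A value of 10 was reached by 3 lost regions (0.126%) and 731 kept ones (20.1%). These values come from the Controls that chose the regions and are given as a description. The weaker-Control fold, the lower of the 2 Control values, had a median of 3.24 and was at least 4 in 247 regions (10.3%) and at least 5 in 15 (0.628%). Its median was similar for lost regions at gene ends (3.19) and between genes (3.34), and 3.99 for kept gene-body regions. Between Control 1 and Control 2 the fold of a region had a Spearman correlation of 0.58 across 2390 lost regions and 0.78 across 3634 kept ones; these are correlations across regions of 1 pair of libraries.

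The regions with the highest weaker-Control fold lay in genes of varied function. Prkar1b, a regulatory subunit of protein kinase A, held the strongest (chr5:139064625-139064961), with folds of 6.24 in Control 1 and 6.56 in Control 2. A region in Abcb10, a mitochondrial transporter gene, had 6.92 and 5.66. A region in Ncor1, which encodes a corepressor of nuclear receptors, had 5.56 and 5.93. The region in Trip12, a ubiquitin ligase gene, had 5.58 and 5.48. In these 4 regions both Controls had a fold above 5, and neither knockout list had a peak.

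Chek2, the checkpoint kinase that acts on DNA breaks in oocytes, held 2 lost regions. The stronger, chr5:110845410-110846034, had folds of 6.07 and 5.33, and the weaker had 3.09 and 3.52. The gene end of Chek2 was kept, with folds of 6.89 and 6.11 in the Controls and 9.42 and 8.19 in the knockouts. The other 5 of the 10 strongest lay in Prkch (6.87 and 5.27), Ankfn1 (5.40 and 5.27), AW554918 (5.22 and 5.33), Myh14 (5.15 and 5.29) and Efcab8 (5.48 and 5.12). The widest lay in Rbm20 (1883 bp), Muc6 (1856 bp), Pth1r (1834 bp), Nhlh2 (1813 bp) and Akap12 (1791 bp), where the weaker-Control fold was 2.79, 2.98, 2.97, 3.33 and 2.96. The widest regions were thus not among the strongest.

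Most lost gene-body regions stood alone. The nearest peak of either Snf5 CKO library lay 13299 bp away at the median, and 81 regions (3.39%) had one within 500 bp. The nearest kept region was 26502 bp away and the nearest other lost region 68138 bp away, both medians. Another lost region lay within 10000 bp of 276 regions (11.5%).

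Values on either side of the rule's borders are given beside those of all lost gene-body regions, with medians of 3.24 (weaker-Control fold) and 597 bp (width). The 122 lost regions just outside the gene-end windows, 1000 to 1500 bp from a gene end, had a median weaker-Control fold of 2.83, and the 136 lost regions left out for lying 500 to 1000 bp from one had 2.94. Gene-body regions with peaks in both Controls and in Snf5 CKO 1 alone of the knockouts numbered 1013 with a median of 3.46, and those with Snf5 CKO 2 alone numbered 210 with 3.36. Peaks in Control 1 alone gave 4929 gene-body regions and Control 2 alone gave 2415, with median folds of 3.23 and 3.17. These folds come from 1 library each and not from the lower of 2 values. Regions with 1 Control alone were narrower, with median widths of 310 and 270 bp, against 590 to 636 bp in the other groups of this paragraph. Those other groups join peaks of 2 or more libraries, which widens a merged region by construction. Within 1 library, peaks of lost gene-body regions covered a median of 495 bp in Control 1 and 386 bp in Control 2. The count of lost regions depends on having both Controls, since it was 4936 without Control 1 and 7402 without Control 2.

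The libraries differed in how much was called. On chromosomes 1 to 19 the Controls held 37933 and 34979 peaks and the knockouts 42761 and 26900. Gene-body regions with a peak numbered 12867, 10902, 12147 and 6342 in the same order, so Snf5 CKO 2 had the fewest. No read counts were used, so sequencing depth is unknown. Absence of a peak does not show closed chromatin, since weaker signal would not be listed. With every list trimmed to its 26900 peaks of highest −log10 q, lost gene-body regions numbered 1306 and gained ones 1077; the part of list length in the 2390 was otherwise not tested. As a check of the labels, the gene ends of Smarcb1 had peaks in both Controls and in neither knockout library. Those of the germ cell genes Ddx4, Dazl, Pou5f1 and Sycp3 were open in all 4.

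Taken over all merged regions of each place, the lost share was higher inside gene bodies than at gene ends or between genes. The lost share was 10.6% of gene-body regions, 5.73% of 14203 regions at gene ends (814 regions) and 6.52% of 25967 intergenic regions (1693 regions), against 7.80% of all merged regions. Of the 7247 gene-body regions with a peak in both Controls, 33.0% were lost. This second share was not taken at gene ends or between genes, so the places are not compared by it. By chromosome the lost share of gene-body regions ran from 8.36% on chromosome 14 to 13.7% on chromosome 19. The 2-against-2 design allows no exact permutation p below 0.333, and the lost state is given here with no test.

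Host genes, the protein-coding genes with at least 1 lost gene-body region, numbered 1892 of 20661 (9.16%). Kept gene-body regions had 2846 hosts (13.8%) and gained ones 918 (4.44%). One lost region was held by 1518 hosts (80.2%), 2 by 270 (14.3%), and 3 or more by 104 (5.50% of hosts and 0.503% of all genes). These 104 genes held 394 of the 2390 regions (16.5%). Without Control 1 the number of genes with 3 or more was 393, without Control 2 it was 695 and without Snf5 CKO 1 it was 205.

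Hosts were long genes. Their median length was 68366 bp, against 17491 bp for all protein-coding genes, 64050 bp for hosts of kept regions and 97552 bp for hosts of gained regions. Of the hosts, 711 (37.6%) were over 100 kb, against 2312 of 20661 genes (11.2%). Hosts of 3 or more had a median of 231464 bp. Hosts of lost and kept regions thus had similar lengths, and both were longer than the genes at large.

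Per unit of length the order was the opposite. Among genes under 10 kb, 1.39% hosted a lost region, at 5.92 lost regions per Mb of gene body. The share of hosting genes was 6.04% at 10 to 30 kb, 14.5% at 30 to 100 kb, 29.0% at 100 to 300 kb and 36.7% over 300 kb, while the density went from 3.87 through 3.30 and 2.60 to 1.3 per Mb. Kept regions had the same order, from 8.63 per Mb in genes under 10 kb to 2.35 per Mb over 300 kb. Gained regions lay between 0.985 and 1.43 per Mb in every length class. The lost share of gene-body regions was 16.8% in the shortest class (105 of 625 regions) and 8.46% in the longest (391 of 4621). Short genes leave little body outside the excluded windows, 17.7 Mb in all for the shortest class.

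**Figure D2:**
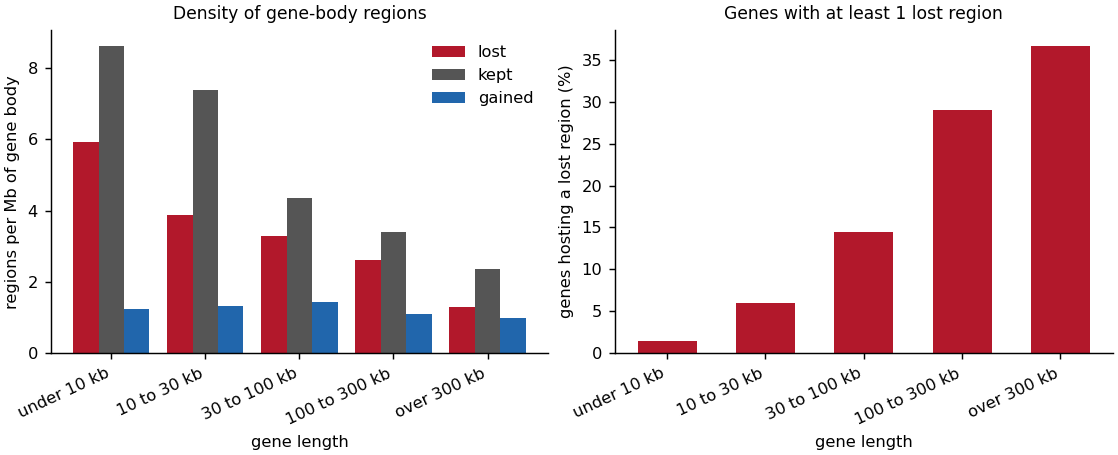
Left, lost (red), kept (grey) and gained (blue) gene-body regions per Mb of gene body in 5 classes of gene length; right, percent of genes of each class hosting at least 1 lost region. The share of hosting genes goes from 1.39% to 36.7% with length while the density of lost regions goes from 5.92 to 1.3 per Mb.

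Fry, which encodes a large microtubule-binding protein, hosted 14 lost regions, the most of any gene. It is 379136 bp long (chr5:150118618-150497753), and its body held 35 merged regions, of which 14 were lost, none kept and 1 gained. Most of the other 20 had a peak in 1 library alone, but some had peaks in both Controls and 1 knockout. Of these, chr5:150220370-150220831 had folds of 5.58 and 3.52 in the Controls and 6.29 in Snf5 CKO 1. Another, chr5:150137931-150138388, had 5.21 and 4.96 in the Controls and 4.37 in Snf5 CKO 2. In Control 1 the 14 folds ran from 2.58 (chr5:150215867-150216490) to 4.08 (chr5:150281149-150281421). In Control 2 the same regions ran from 2.72 to 5.33, again with these 2 as the lowest and the highest. The region at the internal start printed above (chr5:150259473-150260195) had 3.79 and 4.12. The outer start of Fry carried a kept region with folds of 4.05 and 4.70 in the Controls and 7.53 and 6.16 in the knockouts. The gained region of Fry (chr5:150248934-150249426) had 4.33 in Snf5 CKO 1 and 5.61 in Snf5 CKO 2. The 14 regions spanned 300665 bp of the gene.

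Lost regions also lay in the genes next to Fry. B3glct, a glucosyltransferase gene of 84500 bp, hosted 5 of its 9 gene-body regions as lost, with weaker-Control folds of 3.0 to 3.93. Rxfp2, the receptor gene for insulin-like peptide 3, hosted 5 of 8 within 63876 bp, with 2.64 to 3.73; it was chosen after its values were seen. Rxfp2 had 7.83 lost regions per 100 kb, B3glct 5.92 and Fry 3.69. From the start of B3glct to the end of Fry (0.820 Mb, an interval chosen after the values were seen) there were 78 merged regions of any place lying wholly inside, of which 29 (37.2%) were lost, 1 kept and 1 gained. A kept region that crosses the start of B3glct, and so the border of the interval, is not in these counts. On the rest of chromosome 5, 8.39% of 4257 regions were lost. Regions of the interval with a peak numbered 63 and 48 in Controls 1 and 2, against 17 and 3 in knockouts 1 and 2. Snf5 CKO 1 thus still had peaks in this interval, and Snf5 CKO 2 had almost none.

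**Figure D3:**
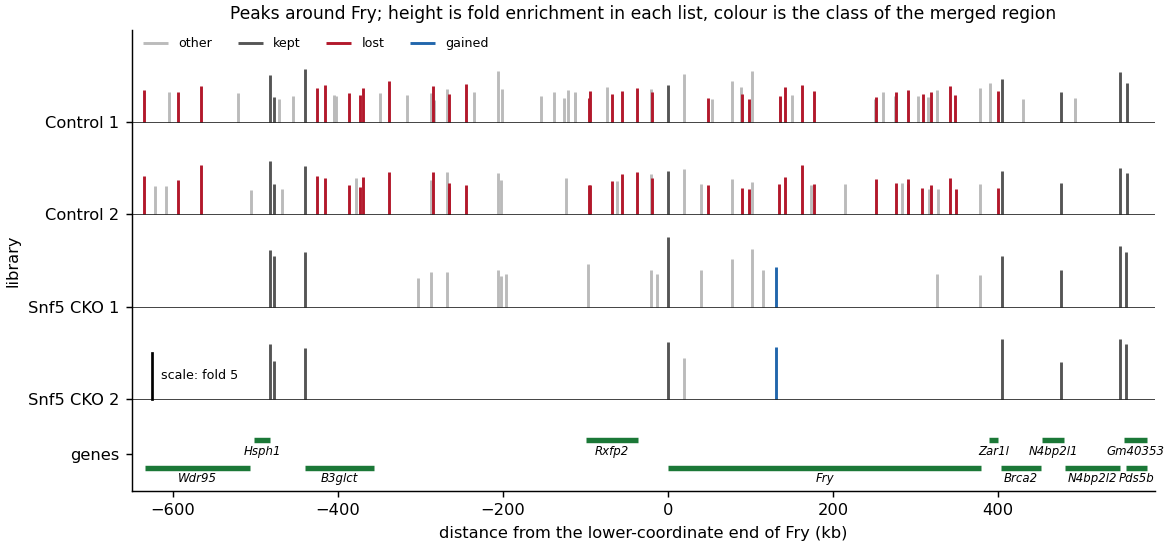
Peaks of each library around Fry by distance from its lower-coordinate end (horizontal axis, kb); the height of a line is the authors' fold enrichment, its colour the class of the merged region, and green bars are protein-coding genes. Red lines of lost regions stand in both Control lanes from B3glct to the end of Fry, where Snf5 CKO 1 has peaks in 17 regions and Snf5 CKO 2 in 3.

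In bins of 1 Mb the bin holding most of Fry had 20 lost gene-body regions, and the next highest had 11. Fry still hosted 8 when every list was limited to peaks with a −log10 q of at least 3, and 10 when the lists were trimmed to equal length. It hosted 19 without Control 1, 23 without Control 2, 18 without Snf5 CKO 1 and 15 without Snf5 CKO 2. Without Control 2, Camta1 hosted the most, with 31.

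The hosts after Fry were long genes of several families. Camta1, a calmodulin-binding transcription activator gene of 802246 bp, hosted 8 lost and 3 kept regions among 47. Its lost regions had folds of 2.52 to 4.32 in Control 1 and 2.52 to 4.53 in Control 2. Atrnl1, an attractin-like gene of 522384 bp, hosted 8 of 27. Grip1, a PDZ scaffold gene of 634030 bp, hosted 7 of 18 with none kept, with Control 1 folds of 2.99 to 4.55 and Control 2 folds of 3.08 to 4.29. In Grip1, as in Fry, the outer ends were open in all 4 libraries while no gene-body region was kept.

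Tiam1, an activator of the small GTPase Rac, hosted 7 lost of 28 regions, and its outer start was closed in all 4 libraries. Zfp407, a zinc finger gene, hosted 7 of 26. Sox5, a transcription factor gene of 953863 bp, hosted 6 of 28, and Ctif, which acts in the first round of translation, hosted 6 of 12. Arid1b, itself a SWI/SNF subunit gene, hosted 6 lost, 3 kept and 2 gained of 32, with weaker-Control folds of 2.3 to 3.27. Clybl hosted 6 of 24. Mtus2 (5 of 25), Mast4 (5 of 12), Aff3 (5 of 19) and Rbfox3 (5 of 13) had 5 each, as B3glct did. A further 6 genes tied with them at 5: Rere, Rxfp2, Mbp, Tenm3, Dst and Usp6nl. Of the 21 genes with 5 or more, Fry, Grip1, B3glct, Rxfp2 and Mbp held no kept gene-body region.

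**Figure D4:**
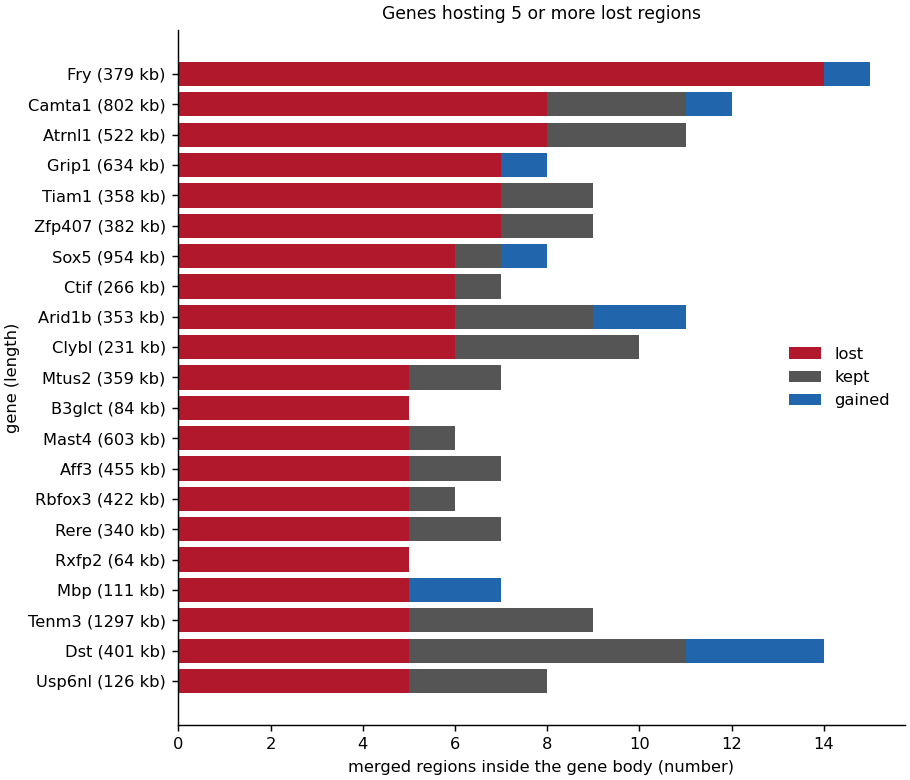
Number of lost (red), kept (grey) and gained (blue) regions inside the body of the 21 genes hosting 5 or more lost regions, with gene length in kb. Fry has 14 lost, no kept and 1 gained region, and the other genes have 5 to 8 lost regions each.

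A small number of lost regions fell where genes overlap. Among the 24 that overlapped several genes (1.0%), 4 lay in the clustered protocadherins on chromosome 18, whose variable first exons share a common end. They overlapped 3, 12, 17 and 20 annotated genes, and they were counted for each gene as a host.

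Along the gene, lost regions lay further from the start than kept ones. Strand was known from the promoter table for 16456 of 20661 genes (79.6%), which placed 1898 lost, 2869 kept and 851 gained regions with a single host. Upstream of the gene's midpoint lay 47.7% of lost regions (905, exact binomial 95% interval 45.4 to 50.0), 59.3% of kept regions (1702, 57.5 to 61.1) and 46.5% of gained regions (396, 43.1 to 50.0). These intervals treat regions as independent and cover counting error only. The distance from the gene start had a median of 35427 bp for lost, 23692 bp for kept and 50922 bp for gained regions. Within 5000 bp of the start lay 8.69% of lost, 19.8% of kept and 5.29% of gained regions.

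Some of the kept regions near the gene start were annotated starts themselves. With every region that touched an annotated start left out, a step added after the values were seen, 46.4% of 1789 lost (44.1 to 48.7), 48.5% of 1865 kept (46.2 to 50.8) and 46.2% of 833 gained regions (42.8 to 49.7) lay upstream of the midpoint. The 3 intervals then overlapped.

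**Figure D5:**
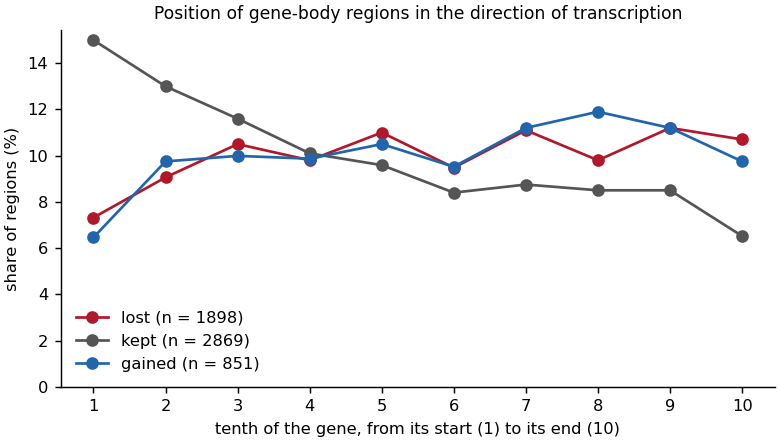
Share of lost (red, n = 1898), kept (grey, n = 2869) and gained (blue, n = 851) gene-body regions in each of 10 equal bins of the host gene, from its start to its end. Lost regions hold 7.32% in the bin nearest the start and 10.7% in the bin nearest the end, and kept regions 15% and 6.52%.

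Few host genes had also lost the peaks at their ends. Peaks at a gene's ends did not enter the rule. The ends were open in all 4 libraries in 1270 of 1892 hosts (67.1%), lost in 81 (4.28%), gained in 4 (0.211%) and closed in all 4 in 361 (19.1%). Among the 18769 other genes 54.9% were open in all 4, 2.95% lost and 33.8% closed. Hosts are longer, so the shares were set side by side within length classes. Ends open in all 4 made up 49.0% of hosts and 39.9% of other genes under 10 kb, and 57.8% and 62.1% at 10 to 30 kb. They made up 71.2% and 66.1% at 30 to 100 kb, 70.9% and 68.5% at 100 to 300 kb, and 69.2% and 64.4% over 300 kb. For open ends, other genes were higher at 10 to 30 kb and hosts in the other 4 classes. Lost ends made up 4.90% of hosts and 2.78% of other genes under 10 kb, 5.41% and 2.99% at 10 to 30 kb, and 3.81% and 3.19% at 30 to 100 kb. They made up 4.26% and 3.09% at 100 to 300 kb, and 3.59% and 2.37% over 300 kb. Lost ends were thus more frequent in hosts in each class, with no test of the difference. From the shortest class to the longest, these shares rest on 5, 20, 27, 22 and 7 hosts. The exact binomial intervals of hosts and other genes overlapped in every class. At 10 to 30 kb they barely did, with 3.33% to 8.22% for hosts and 2.56% to 3.46% for other genes. Overlap of intervals does not decide whether the shares differ. Over 300 kb the intervals were 1.46% to 7.26% for hosts and 1.03% to 4.62% for other genes. A kept gene-body region was present in 621 hosts (32.8%) and in 11.9% of other genes. These shares were not split by length class, and longer genes have more room for any region.

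Kept gene-body regions in host genes were shorter in the knockout libraries, to the same extent as elsewhere. Over 952 such regions the medians of the length covered by peaks were 762 and 710 bp for the Controls, then 605 and 506 bp for the knockouts. Both knockout libraries lay below both Controls (736 ± 36.8 bp in Control, 556 ± 70.0 bp in Snf5 CKO; mean ± SD, n = 2), and the exact two-sided permutation p was 0.333, the smallest that 2 against 2 libraries allow. The median log2 ratio was -0.28, and it was also -0.28 over 2682 kept gene-body regions in genes without a lost region (777 ± 26.5 and 596 ± 71.8 bp, n = 2, exact permutation p = 0.333). The fold went the other way. In hosts its medians were 4.09 and 4.15 in the Controls and 4.62 and 4.38 in the knockouts. In other genes they were 4.30 and 4.25, then 4.70 and 4.51.

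Several genes that act in meiosis and in primordial germ cells were hosts. Of 24 genes of meiotic entry 3 were hosts (12.5%), against 9.16% of all genes, and 3 of their 44 gene-body regions were lost (6.82%), against 10.6%. They were the retinoic acid receptor genes Rara (2.88 and 3.34 in Control 1 and Control 2) and Rxra (3.05 and 3.23) and the corepressor gene Ctbp2 (2.96 and 3.45). Stra8 and Meiosin (listed as Bhmg1), the transcriptional activators of meiotic entry, hosted none, and their gene ends were open in all 4 libraries. Of 31 recombination genes 4 were hosts, with 5 of 39 regions lost (12.8%): Chek2 and Rec114, described above, the helicase gene Blm (4.2 and 3.69) and Rnf212b (4.74 and 3.16), a gene related to the crossover factor RNF212. The 16 genes of the chromosome axis and cohesin and the 6 of meiotic telomeres hosted none among 14 and 6 gene-body regions.

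Primordial germ cell and pluripotency genes included 5 hosts of 26, with 6 of 57 regions lost (10.5%). Prdm14, which holds germ cells in the pluripotency-like state, had a lost region with folds of 3.57 and 3.69, and Dppa3 had one with 2.90 and 2.91. Sall4 had a pair of them, with 3.07 and 3.19 in one and 3.31 and 2.99 in the other, beside a gained region. Genome defence genes included 5 hosts of 27, with 8 of 62 regions lost (12.9%). Dnmt3a, a de novo DNA methyltransferase, hosted 4 lost and 3 kept regions. The 4 lost regions of Dnmt3a had folds of 3.17 and 3.47, 2.88 and 3.19, 3.96 and 2.86, and 3.67 and 2.71 in Control 1 and Control 2. Dnmt3b had 4.28 and 3.97, and Asz1, a piRNA pathway gene, had 4.24 and 3.81. Of 22 oocyte genes Kit alone was a host, with 2.71 and 2.94, and 1 of 19 regions of this list was lost (5.26%). Kit is also among the 5 hosts of the pluripotency list. The lost shares of the pluripotency and genome defence lists, 10.5% and 12.9%, lie near the 10.6% of all gene-body regions. That of the oocyte list is lower and rests on 1 lost region.

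Markers of other gonadal cells were also among the hosts. Of 25 pregranulosa genes 7 were hosts (28.0%), and 7 of their 29 gene-body regions were lost (24.1%), 7 kept and none gained, beside 9.16% of all genes and 10.6% of all gene-body regions. They include Rspo1 (3.80 and 3.83 in Control 1 and Control 2), Wnt4 (2.92 and 3.20) and Lgr5 (3.20 and 3.0). Gene ends of this list were open in 21 and 20 genes in the Controls and in 19 and 17 in Snf5 CKO 1 and Snf5 CKO 2, and those of Foxl2 were open in all 4. Of 28 stromal genes 5 were hosts with 6 of 48 regions lost (12.5%), and gene ends were open in 20, 21, 19 and 15. Of 27 endothelial and blood genes 3 were hosts with 3 of 42 lost (7.14%), and gene ends were open in 14, 15, 13 and 11. The ends of the blood gene Ptprc and the stromal gene Pdgfra were closed in all 4, although Pdgfra held 1 kept gene-body region. The ends of the endothelial gene Pecam1 had a peak in Control 1 alone. Of 14 male germ cell genes Gfra1 alone was a host, with 2 lost regions among the 15 gene-body regions of the list (13.3%). Open ends in the pregranulosa, stromal, and endothelial and blood lists were fewest in Snf5 CKO 2, which had the shortest peak list. Among lists of no marker genes, those of potassium channels were also fewest there (56, 58, 53 and 45). Those of chromatin enzymes were not (90, 88, 85 and 86). The part of list length in these counts was not tested, nor was the part of other cells in the lost regions.

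Several lists of neural, signalling and receptor genes lost a small share of their regions, whether or not many of their genes were hosts. Of 56 synaptic adhesion genes 20 were hosts (35.7%), yet 35 of 532 gene-body regions were lost (6.58%), and Tenm3 led with 5. Glutamate and GABA receptor genes had 4 hosts of 39 and 6 of 161 regions lost (3.73%), and axon guidance genes had 11 of 70 and 13 of 235 (5.53%). Cadherins had 10 of 38 and 15 of 178 (8.43%), and cyclic AMP signalling genes 16 of 58 and 20 of 227 (8.81%). Nuclear receptor genes had 8 of 45 and 8 of 118 (6.78%). In each of these lists the lost share was below the 10.6% of all gene-body regions. That share was 10.3% in genes of 100 to 300 kb and 8.46% in genes over 300 kb. Median gene length was 703478 bp for synaptic adhesion genes, 213077 bp for glutamate and GABA receptor genes and 46501 bp for nuclear receptor genes. The lists were not compared with genes of like length.

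A further group of lists had lost shares from 9.77% to 16.0%, beside the 10.6% of all gene-body regions. Transcription factors of the SOX, forkhead and homeobox families had 43 hosts of 184 genes, with 61 of 411 regions lost (14.8%). SWI/SNF subunit genes had 6 hosts of 28 and 12 of 79 regions lost (15.2%), the hosts being Arid1b, Bcl7c, Bcl7a, Smarca2, Pbrm1 and Arid1a; 6 of the 12 lay in Arid1b. Notch and hedgehog genes had 9 of 35 and 12 of 75 (16.0%), led by the coactivator gene Maml3 with 3 lost and 6 kept regions. Chromatin enzymes had 24 of 97 and 30 of 222 (13.5%), and calcium channel genes 16 of 52 and 24 of 182 (13.2%). Wnt genes had 19 of 149 regions lost (12.8%), extracellular matrix genes 25 of 199 (12.6%) and TGF-beta and BMP genes 14 of 113 (12.4%). Potassium channel genes had 15 of 140 (10.7%), ankyrins, spectrins and myosins 32 of 301 (10.6%), and FGF and receptor tyrosine kinase genes 13 of 133 (9.77%). The shares are counts over lists of unequal size, and no difference between a list and the rest was tested.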

How the data were processed

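Libraries and groups were taken from the labels. The submitters' processing notes name MACS2 2.2.7.1, Picard 2.25.2, SAMtools 1.10, Bowtie2 2.4.2, Trim Galore 0.6.5 and the build mm10; which calling thresholds applied is not given in the sources used here. For each library the authors deposited 1 list of broad peaks, each peak with a score (10 times the −log10 q as a whole number), a fold enrichment over local background as a ratio, and −log10 p and −log10 q values. The score was not used otherwise. Smallest −log10 q values were 1.00 to 1.02. Genes came from the RefSeq table of GRCm38.p6. Merging, placing and counting used Python 3.11.15 with pandas 2.3.3, and were tested on simulated peaks, where 1500 of 1500 planted regions were recovered.

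The regions and the gene lists were chosen with earlier results of these data known. Named genes are the 15 top hosts (ties broken by the sum of weaker-Control folds), the 10 strongest and the 5 widest regions by the measures in the text, up to 3 hosts of each list, and Smarcb1, Stra8 and Meiosin; others (Rnf212b, Wnt4, the remaining SWI/SNF hosts, the marker genes given for their gene ends, the genes tied at 5 lost regions and the printed starts) were chosen after their values were seen. The lost state has no test, and 13 alternative settings were run.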

Additional observations from a re-analysis of the deposited data

How the results depend on the processing

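Of 13 settings for the lost regions, 12 were planned; counting the ends of genes of every biotype was chosen after seeing the data and gave 2227 lost gene-body regions against 2390. A −log10 q minimum of 3 for all peaks gave 1256 regions in 1115 hosts, 30 of them with 3 or more, a lost share of 9.89% and a median host length of 74551 bp. Requiring it in the Controls alone gave 751, 704, 12, 3.32% and 83567 bp. Lists of equal length gave 1306 regions, 1148 hosts, 34 with 3 or more and 9.49%. Merging peaks within 500 bp gave a lost share of 11%. Counting knockout peaks only where they covered at least 50% of the bases under Control peaks gave 199 genes with 3 or more, 14.8% and 61142 bp. A window of 2000 bp gave 75455 bp.

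Leaving out 1 library gave 2601 to 7402 lost regions, 2029 to 4336 hosts, 132 to 695 genes with 3 or more, lost shares of 11.7% to 36.3% and median host lengths of 63216 to 65745 bp; presence in fewer libraries is by construction an easier rule to meet. The median Control fold of lost regions, 3.44, ran from 3.26 to 4.03 over the 13 settings. The share of regions upstream of the gene midpoint, 47.7%, ran from 46.5% to 49.2% over the 13 settings. Without Snf5 CKO 2, gained gene-body regions (5734) outnumbered lost ones (2601), and with the stricter q in the Controls alone gained ones numbered 1111 against 751. No paired analysis was possible because the lost state, presence in 2 libraries and absence in 2, comes from no test. For the covered length of kept regions, in hosts and in other genes, a replicate block by library number (chosen after seeing the data) left the difference at -180 bp and gave an exact sign-flip permutation p of 0.500, the smallest that 2 pairs allow.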
